A study of Mus musculus with 8 samples.

Results

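The genes described here are 35 genes of protein folding in the endoplasmic reticulum (ER) and of the unfolded protein response. They were listed by name and role, with earlier results of these data known. All 35 were found among the 29924 gene names of the arrays, each by its brightest probe. 34 of them passed the filter on dim genes, which asks for a probe well above background in 1 cell type or more, at both days, as did 15763 genes in all. The remaining gene, Hyou1, an ER chaperone of the Hsp70 family, stayed near background, at 24 to 61 RU, and well above it on none of the arrays. 32 of the 34 tested members were well above background on all 8 arrays. Chac1 was so on 4 arrays, those of TFH and TFR cells, and therefore passed the filter only through the cell types in which it was high. Derl3 was so on 7 arrays.

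Cells came from peripheral lymph nodes (pLN) of B6.Cg-Foxp3<tm1Mal> mice, in which Foxp3-expressing cells carry EGFP, after s.c. immunization with the protein antigen KLH in alum. Each array measured 25 ng of RNA from 1 sorted pool of 8 to 15 mice of both sexes, 8 to 14 weeks old. The 4 sorted cell types were naive CD4 T cells (GFP-, PD1-, GL7-), TFH cells (GFP-, PD1hi, GL7+), Treg cells (GFP+, PD1-, GL7-), and TFR cells (GFP+, PD1hi, GL7+ or GL7-). TFH cells are follicular helper T cells, and TFR cells are their regulatory counterpart. Each cell type was measured on 1 array at d12 and 1 at d25, so n = 2 arrays for each cell type. The naive gate used neither CD44 nor CD62L. Mice that had not been immunized were not analysed here. GL7 was required for the TFH gate and not for the TFR gate.

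Proteins destined for secretion or for membranes enter the ER through the Sec61 translocon and are folded there by chaperones and protein disulfide isomerases. Misfolded proteins are returned to the cytosol and degraded. When unfolded proteins accumulate, the sensors Ern1 (IRE1), Atf6 and Eif2ak3 (PERK) start the unfolded protein response. Ern1 splices the mRNA of the transcription factor Xbp1, Atf6 releases a transcription factor from its own chain, and Eif2ak3 slows translation while Atf4 mRNA is translated more. The response is best known in plasma cells and other secretory cells. The sensors are switched by protein changes and by splicing, so the mRNA levels given here do not measure their activity.

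Levels are normalized signals in relative units (RU) with the 75th percentile of each array set to 1500 and a floor of 20. Differences are log2 differences from limma with cell type and day as terms, given with their standard error (SE), and p-values were adjusted by Benjamini-Hochberg over all 15763 genes. A member was called at an adjusted p below 0.05. With 2 arrays for each cell type and day as a term, these p-values rest on how unevenly the cell types changed from d12 to d25. They do not measure the spread between replicates of the same day.

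The sorted cells carried the mRNAs of their labels. The summed level of Foxp3, Il2ra and Lrrc32 was between 76512 and 108869 RU on the 4 arrays of Foxp3+ cells and between 354 and 692 RU on the others. That of Cxcr5, Bcl6, Pdcd1 and Il21 was between 147905 and 680126 RU on the follicular arrays and between 9666 and 14416 RU on the others. Some markers of other cells were uneven. 6 of 7 B cell markers were above background on at least 1 array, and their sum was 1690 RU on the TFH array of d12, 12745 RU on that of d25, and between 4459 and 8716 RU on the other arrays. Pax5 was at the floor on all arrays. Of 6 markers of antibody-secreting cells, Tnfrsf17 was not above background on any array and Sdc1 on 1 array only. Jchain and Mzb1 were highest on the naive array of d12 (7466 and 7639 RU) and lay between 418 and 4026 RU on the other arrays. The sum of the 6 markers was 71426 RU (d12) and 120280 RU (d25) for TFH cells, with 18474 to 35826 RU elsewhere. Pou2af1, which follicular T cells also express, gave most of it in TFH cells (51203 and 98972 RU). In a bulk sample, fewer cells of a type and less RNA per cell cannot be told apart.

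In TFH cells the members were shifted upward against naive CD4 T cells. 15 of the 34 tested members were higher and 3 were lower, whereas of all tested genes 20.9% were higher and 25.6% lower. The median log2 difference of the members was 0.25, against -0.07 over all tested genes. The members were chosen with earlier results of these data known, so this shift describes the list only. Of 131 other tested genes of these pathways, 22.1% were higher and 16.8% lower. The members called higher were Hspa5, Sdf2l1, Creld2, Calr, Pdia3, Pdia6, Atf6, Xbp1, Syvn1, Derl1, Derl2, Sec61a1, Sec61b, Chac1 and Asns, and those called lower were Ddit3, Edem1 and Trib3. Chac1 passed the filter only through cell types in which it was high, so the filter set its direction. All 18 had the same sign at both days, as did 30 of the 34 tested members. With day as a term, a call asks for similar differences at both days, so this agreement largely follows from the call. The naive and TFH arrays of a day shared a slide, so each day's difference was taken within a slide.

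Between TFR and Treg cells no such shift was found. 6 members were higher (Hspa5, Sdf2l1, Derl3, Ssr1, Chac1 and Asns) and 6 were lower (Dnajc3, Pdia4, P4hb, Ddit3, Edem1 and Trib3). The direction of Chac1 was set by the filter here too. The background was 18.7% higher and 20.9% lower, and the share of members was 17.6% in each direction. Their median log2 difference was 0.02, against -0.08 over all tested genes. All 12 had the same sign at both days, as did 33 of the 34 tested members, which again largely follows from the call. The TFR and Treg arrays of a day also shared a slide. Without day in the model 5 members were called.

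The markers named above stood out on the arrays of TFH cells at d25 and of naive cells at d12. Without the TFH array of d25, 15 members were called between TFH and naive cells (11 higher, 4 lower). Without the naive array of d12, 12 were called (10 higher, 2 lower). The part of other cells in these differences was not tested.

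**Figure D1:**
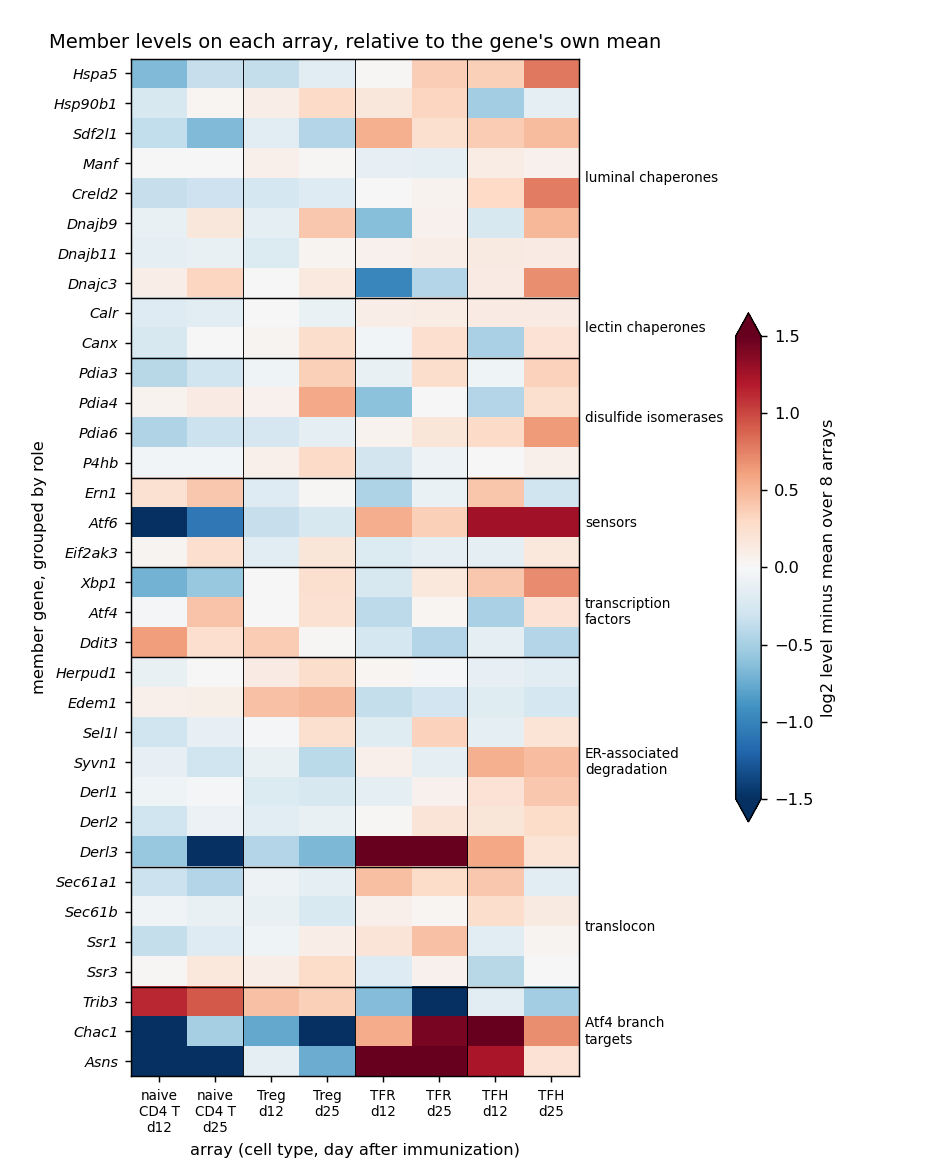
Levels of the 34 tested members (rows, grouped by role) on the 8 arrays (columns, by cell type and day), as log2 level minus the gene's own mean over the arrays. Color is cut at 1.5 in both directions. 8 and 12 members lay above their own mean on the naive arrays of d12 and d25, and 19 and 26 on the TFH arrays. The counts were 12 and 20 on the Treg arrays and 17 and 24 on the TFR arrays. Such counts were not computed over all genes.

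**Figure D2:**
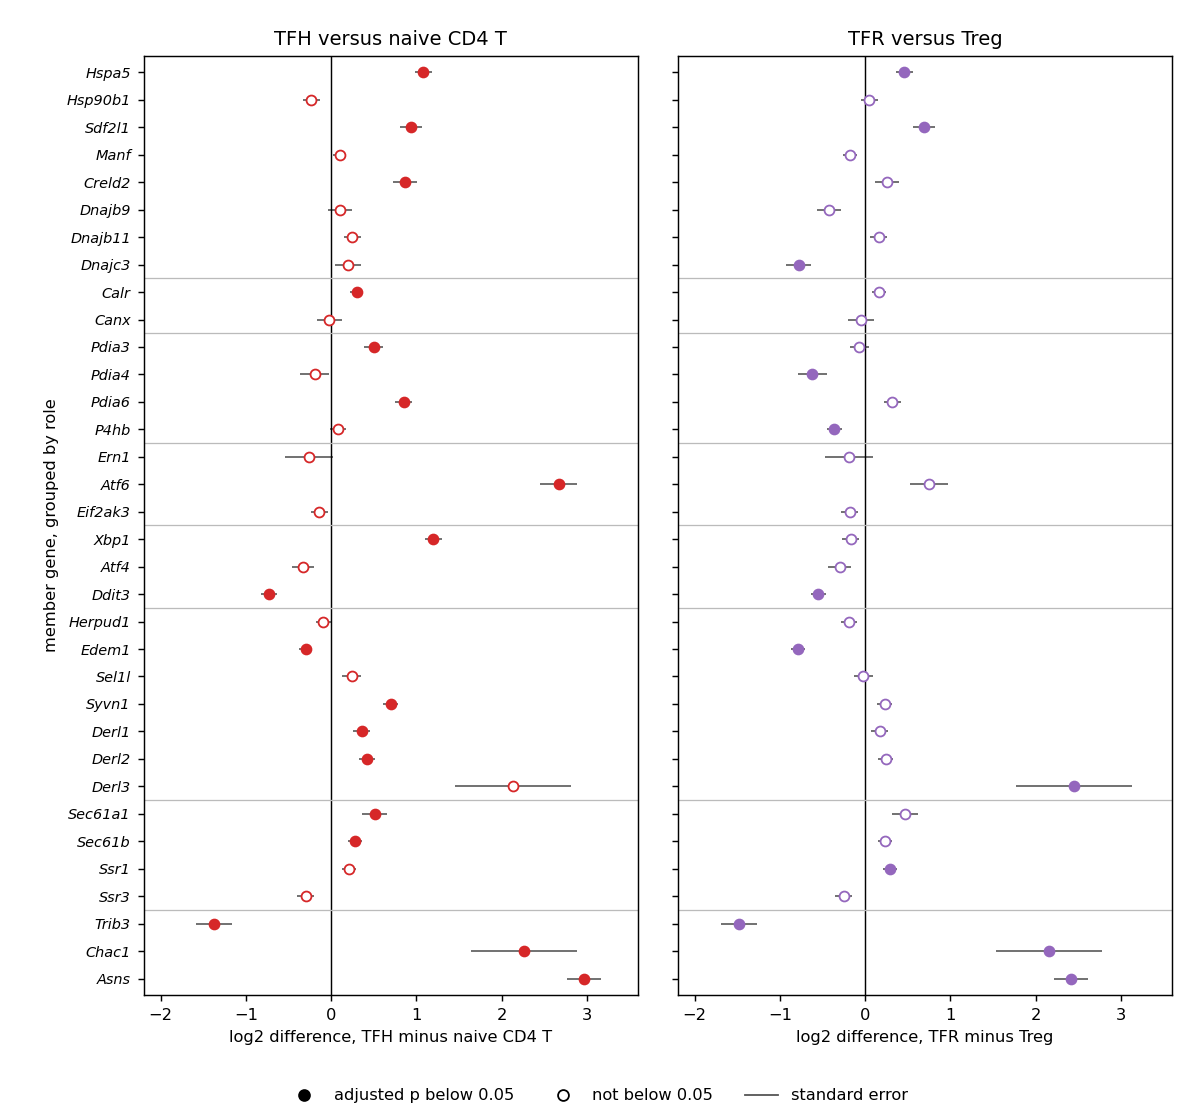
Log2 difference of each tested member between TFH and naive CD4 T cells (left) and between TFR and Treg cells (right). Bars are standard errors of the limma fit over 8 arrays, and filled points have an adjusted p below 0.05. Chac1 was not above background in naive and Treg cells, so its points depend on the floor. Atf6, Xbp1 and Hspa5 lie further to the right in the left panel, while Asns, Chac1 and Trib3 lie far from 0 in both.

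Of the luminal chaperones, which bind unfolded chains inside the ER, 3 of 8 tested were higher in TFH than in naive cells and none was lower. The share higher was 37.5%, where 20.9% of all genes were higher and 25.6% lower. Hspa5 (BiP), the ER Hsp70 that also holds the sensors inactive, measured 46573 and 58165 RU for naive cells at d12 and d25, 57790 and 65508 RU for Treg cells, 74835 and 95135 RU for TFR cells, and 94786 and 127834 RU for TFH cells. Both TFH arrays lay above all naive and Treg arrays, both TFR arrays lay above both Treg arrays, and TFH and TFR overlapped across the days. Hspa5 was 2.11-fold higher in TFH than in naive cells (log2 1.08, SE 0.10, adjusted p = 0.00131) and 1.37-fold higher in TFR cells than in Treg cells (log2 0.46, SE 0.10, adjusted p = 0.0208).

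The first of these calls held when any single array was left out, with values between 1.01 and 1.16. The second was lost without any one of the 4 Treg and TFR arrays (0.36 to 0.55) and without day in the model. Sdf2l1 and Creld2 encode luminal proteins that act with Hspa5. Sdf2l1 was 3744 and 3062 RU for naive cells and 6289 and 6744 RU for TFH cells (log2 0.94, SE 0.13, adjusted p = 0.00507). It was also higher in TFR cells (6989 and 5707 RU) than in Treg cells (4332 and 3556 RU), a call lost without any one of those 4 arrays (0.62 to 0.75). Creld2 was 8357 and 8561 RU for naive cells and 13076 and 18170 RU for TFH cells (log2 0.87, SE 0.14, adjusted p = 0.00783), and this call was lost without the naive array of d25 (0.79).

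Dnajc3 and Hsp90b1 had other orders of the cell types than Hspa5. Dnajc3 (p58IPK), a J-domain cochaperone that also inhibits Eif2ak3, measured 855 and 998 RU for naive cells, 800 and 881 RU for Treg cells, 865 and 1294 RU for TFH cells, and 404 and 588 RU for TFR cells. The TFR arrays were the lowest at each day and overlapped with no other cell type. Dnajc3 was lower in TFR than in Treg cells (log2 -0.78, SE 0.15, adjusted p = 0.0144) and lower in TFR than in TFH cells (log2 -1.12, SE 0.15, adjusted p = 0.00896). The former call was lost without Treg d12, TFR d12 or TFR d25 (-0.90 to -0.63) and without day in the model, and the latter without either TFR array (-1.23 and -1.0).

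Hsp90b1 (GRP94), the ER Hsp90, showed another order. It measured 11548 and 15010 RU for TFH cells, 14095 and 17008 RU for naive cells, 17783 and 20313 RU for Treg cells, and 18687 and 20729 RU for TFR cells. TFH cells were lowest at each day and overlapped with naive cells but not with TFR cells. Its difference was 0.58 between TFR and TFH cells (SE 0.10, adjusted p = 0.0166), lost without either TFR array (0.51 and 0.65), and -0.23 between TFH and naive cells (SE 0.10, adjusted p = 0.102). Manf, Dnajb9 and Dnajb11 passed the test in no contrast, with log2 differences between -0.42 and 0.25 among the 4 cell type contrasts.

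The promoters of several members carry the ER stress element (ERSE), the letters CCAAT and CCACG with 9 bases between them, to which Atf6 and Xbp1 are known to bind. RefSeq promoters of assembly GRCm38.p6 (250 bases before and 50 after a gene's start) were at hand for 30 of the 35 members. On either strand, 9 of the 30 members held an exact ERSE match, against 39 of all 32851 promoters (0.119%). These 9 were Hspa5, Hsp90b1, Creld2, Dnajc3, Calr, Canx, Pdia6, Syvn1 and Derl3. Many of the members are known targets of this element, and a match is a description of the letters alone. The related ERSE-II (ATTGG and CCACG with 1 base between) was in 2 members, Dnajb11 and Herpud1, and in 0.0365% of all promoters. The core of the unfolded protein response element, TGACGTGG, was in none of the 30 members and in 0.676% of all promoters.

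The 250 bases before the start are shown for 4 luminal chaperones, picked by their number of ERSE matches. Hsp90b1 held the most matches, 2, and the others, with 1 each, came next in the order of the list. Capitals mark the fixed letters of each match (CGTGG and ATTGG where it lies on the opposite strand), and each sequence reads 5′ to 3′ along its gene. The stretches are chr2:34771840-34772089 on the plus strand for Hspa5, chr10:86705445-86705694 on the minus strand for Hsp90b1, chr15:88819396-88819645 on the plus strand for Creld2, and chr14:118937682-118937931 on the plus strand for Dnajc3.
Hspa5: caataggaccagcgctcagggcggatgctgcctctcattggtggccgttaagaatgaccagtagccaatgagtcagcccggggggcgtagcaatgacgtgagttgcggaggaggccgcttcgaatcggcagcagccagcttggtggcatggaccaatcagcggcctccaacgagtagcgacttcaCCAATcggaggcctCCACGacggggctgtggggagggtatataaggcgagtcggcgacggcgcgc
Hsp90b1: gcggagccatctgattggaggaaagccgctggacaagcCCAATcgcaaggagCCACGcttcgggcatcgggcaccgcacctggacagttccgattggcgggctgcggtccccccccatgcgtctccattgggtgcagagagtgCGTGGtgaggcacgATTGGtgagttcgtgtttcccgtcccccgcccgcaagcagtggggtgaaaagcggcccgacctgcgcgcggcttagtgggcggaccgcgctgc
Creld2: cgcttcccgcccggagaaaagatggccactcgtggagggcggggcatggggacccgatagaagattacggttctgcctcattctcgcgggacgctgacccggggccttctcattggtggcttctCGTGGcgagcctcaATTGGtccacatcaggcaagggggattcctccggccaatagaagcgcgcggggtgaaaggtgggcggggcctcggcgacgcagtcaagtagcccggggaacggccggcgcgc
Dnajc3: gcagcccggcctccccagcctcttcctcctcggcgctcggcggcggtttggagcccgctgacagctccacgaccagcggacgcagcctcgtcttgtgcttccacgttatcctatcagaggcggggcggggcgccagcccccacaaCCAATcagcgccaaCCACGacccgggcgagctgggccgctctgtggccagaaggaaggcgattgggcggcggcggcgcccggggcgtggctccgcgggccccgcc

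The 4 genes ranged widely between TFH and naive cells. The log2 difference was 1.08 for Hspa5, 0.87 for Creld2, 0.20 for Dnajc3 and -0.23 for Hsp90b1. Only exact matches were counted, and a link between matches and levels was not tested. Of the 9 members with a match, 5 were called higher and none lower in TFH against naive cells (median log2 0.70). Of the 21 members with a promoter but no match, 7 were higher and 3 lower (median log2 0.10). The 5 members without a promoter at hand are in neither group. Of these, Atf6, Derl1 and Sec61a1 were called higher in this contrast, Manf was not called and Hyou1 was not tested. In TFR against Treg cells the counts were 2 higher and 1 lower of 9, and 4 higher and 5 lower of 21. Of all genes 20.9% were higher and 25.6% lower in the first contrast, and 18.7% and 20.9% in the second. No test was made of these counts. Chac1, whose direction was set by the filter, is among the higher members without a match in both contrasts.

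**Figure D3:**
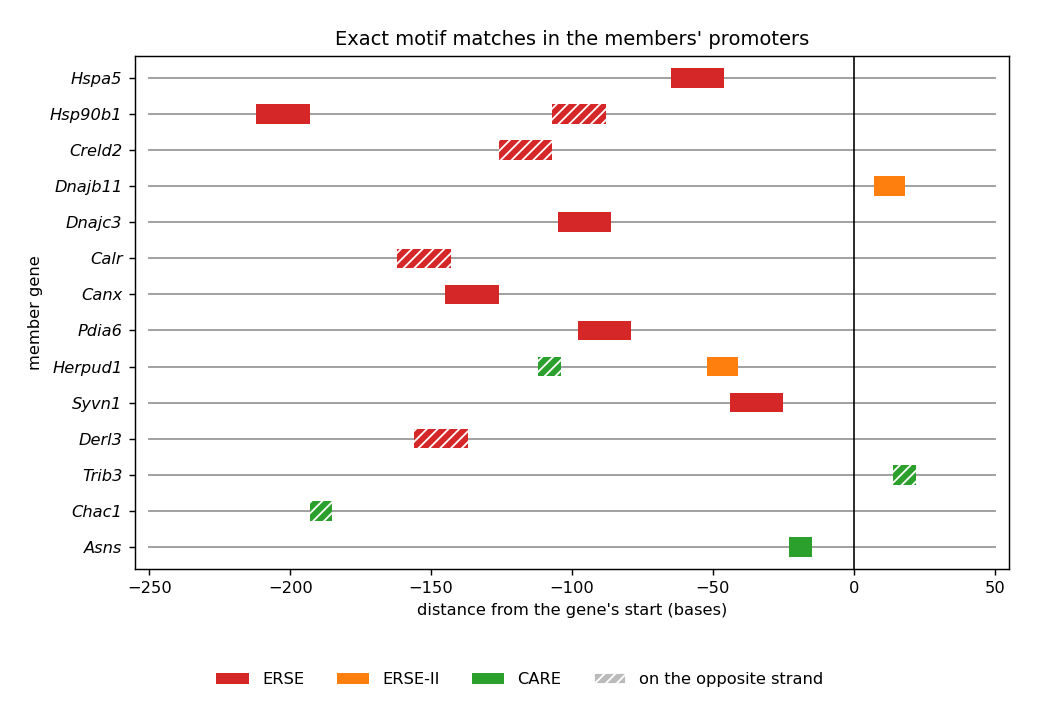
Exact matches to 3 motifs in the RefSeq promoters of the members, drawn for the members that hold one. The horizontal axis gives the distance in bases from the gene's start, and hatched boxes lie on the opposite strand. All ERSE matches lay before the start, with the outermost starting at -212 and the innermost ending at -26.

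Of both lectin chaperones, which bind glycoproteins by their sugars, calreticulin (Calr) was called in TFH cells (log2 0.30, SE 0.08, adjusted p = 0.0371). This small difference was lost without any one of the 8 arrays (0.27 to 0.33). Calnexin (Canx) was not called in any contrast, with -0.02 between TFH and naive cells (SE 0.15). The protein disulfide isomerases, which form and rearrange disulfide bonds, differed among themselves. Pdia6 was 16742 and 18250 RU for naive cells and 27888 and 35471 RU for TFH cells, without overlap (log2 0.85, SE 0.10, adjusted p = 0.00286), and its call held without any single array. Pdia3 (ERp57), the partner of both lectins, differed by 0.50 (SE 0.11, adjusted p = 0.0197). The Pdia3 call was lost without TFH d12, TFH d25 or naive d25 (0.36 to 0.55) and without day in the model.

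Between TFR and Treg cells the other pair of isomerases was called, both as lower in TFR cells. Pdia6 (log2 0.32, SE 0.10, adjusted p = 0.0571) and Pdia3 (log2 -0.07) were not called there. Pdia4 was lower than in Treg cells by 0.62 on the log2 scale (log2 -0.62, SE 0.17, adjusted p = 0.0424), and P4hb by a smaller amount (log2 -0.36, SE 0.09, adjusted p = 0.036). Each call was lost when any of 6 arrays was left out (-0.72 to -0.52 for Pdia4 and -0.41 to -0.31 for P4hb), those of Treg and TFR cells among them. Neither was called between TFH and naive cells.

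Of the 3 sensors, Atf6 alone was called. Atf6 measured 103 and 165 RU for naive cells at d12 and d25, 273 and 293 RU for Treg cells, 507 and 443 RU for TFR cells, and 830 and 829 RU for TFH cells. The 4 cell types did not overlap, in the order TFH, TFR, Treg and naive, and both days gave the same order. The step from naive to TFH cells was 6.36-fold (log2 2.67, SE 0.22, adjusted p = 0.00108). It was the largest difference of the module after Asns in this contrast, and it was called under all 21 other settings tried. The difference was 1.80 with normexp background correction, the smallest over these settings, and 2.31 to 3.02 with left-out arrays.

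The neighbors in this order were less firmly apart. Treg and naive cells differed by 1.12 (SE 0.22, adjusted p = 0.0461), a call that was kept only without naive d25 and was lost without any of the other 7 arrays (0.76 to 1.15). TFR and Treg cells differed by 0.75 (adjusted p = 0.0518), and TFR and TFH cells by -0.81 (adjusted p = 0.063), neither of which passed the threshold. The probe of Atf6 was dim but above background on all arrays.

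The levels of the other sensors overlapped between TFH and naive cells and between TFR and Treg cells. Ern1 was 149 and 168 RU for naive cells, 111 and 128 RU for Treg cells, 92 and 118 RU for TFR cells, and 169 and 103 RU for TFH cells. Its TFH arrays held the highest and the second lowest of the 8 values, and the other 3 probes of Ern1 were near the floor. The difference between TFH and naive cells was -0.26 (SE 0.28, adjusted p = 0.481). Eif2ak3 was 1574 and 1814 RU for naive cells, 1358 and 1734 RU for Treg cells, 1325 and 1385 RU for TFR cells, and 1390 and 1703 RU for TFH cells. Here the day with the higher value was d25 in each cell type, and the difference between TFH and naive cells was -0.14 (SE 0.10, adjusted p = 0.332).

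The 3 transcription factors went separate ways. Xbp1, whose protein drives chaperone and secretory genes, measured 16064 and 17697 RU for naive cells, 22150 and 29173 RU for TFR cells, 26364 and 30914 RU for Treg cells, and 34806 and 42851 RU for TFH cells. TFH arrays were above all others, naive arrays were below all others, and TFR and Treg overlapped. Xbp1 was 2.29-fold higher in TFH than in naive cells (log2 1.20, SE 0.10, adjusted p = 0.00102). Each left-out array kept this call.

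Xbp1 was also higher in Treg than in naive cells (log2 0.76, SE 0.10, adjusted p = 0.0145) and lower in TFR than in TFH cells (log2 -0.60, SE 0.10, adjusted p = 0.0161). The former call was lost without any one of the 4 arrays compared (0.68 to 0.84), and the latter without TFR d12, TFR d25 or TFH d25 (-0.69 to -0.52). Both were lost without day in the model and with slide in its place. The probe of Xbp1 is listed for 2 RefSeq transcripts, so it gave their total and not the spliced form. It is a single probe.

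Atf4, the factor downstream of Eif2ak3, was 31691 and 43273 RU for naive cells, 32261 and 37987 RU for Treg cells, 24639 and 32951 RU for TFR cells, and 23041 and 37644 RU for TFH cells. All cell types overlapped, and Atf4 was not called in any contrast (TFH against naive, log2 -0.33, SE 0.13, adjusted p = 0.0988). Ddit3 (CHOP), which is linked to cell death under lasting ER stress, was 6029 and 4631 RU for naive cells, 5062 and 3947 RU for Treg cells, 3228 and 2877 RU for TFR cells, and 3538 and 2857 RU for TFH cells. Each follicular array lay below each array of the cell types that are not follicular. Ddit3 was lower in TFH than in naive cells (log2 -0.73, SE 0.09, adjusted p = 0.00378) and lower in TFR cells than in Treg cells (log2 -0.55, SE 0.09, adjusted p = 0.0113). The first call held without any single array, and the second was lost without Treg d12, Treg d25 or TFR d12 (-0.59 to -0.46) and without day in the model.

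**Figure D4:**
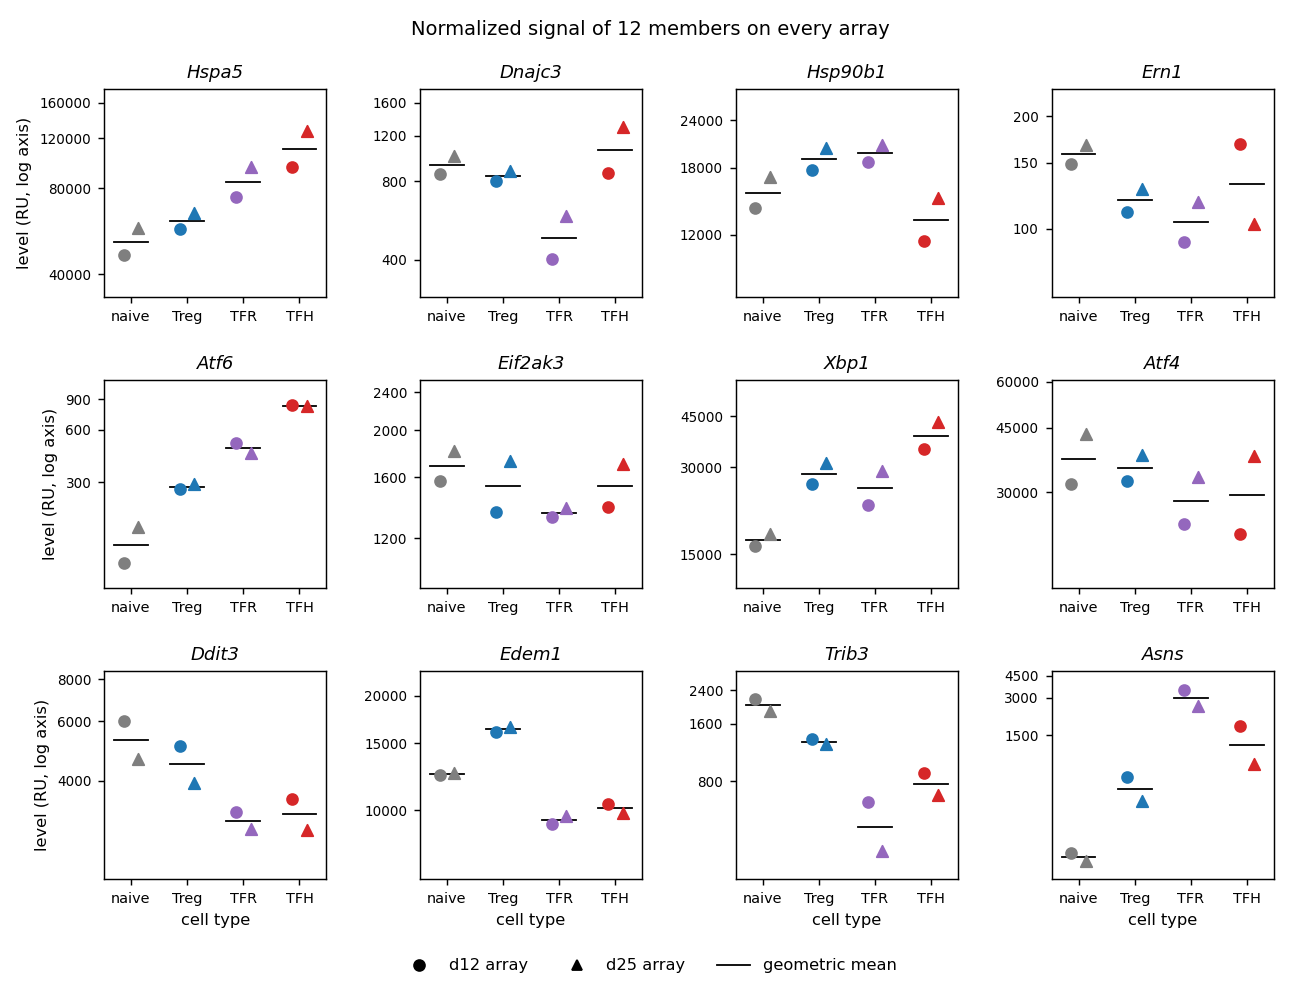
Normalized signal in RU (log axis, a separate scale for each gene) of 12 members on the 8 arrays, by cell type. Circles are d12, triangles are d25, and lines are geometric means of both. Atf6 and Xbp1 are highest in TFH cells, Ddit3 and Edem1 are lower in both follicular cell types, Dnajc3 is lowest in TFR cells, and Trib3 and Asns run in opposite order.

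Degradation of ER proteins was represented by 7 members. Edem1, which delivers misfolded glycoproteins to degradation and is a known Xbp1 target, was 12409 and 12536 RU for naive cells, 16076 and 16564 RU for Treg cells, 9232 and 9654 RU for TFR cells, and 10419 and 9861 RU for TFH cells. Both follicular cell types were below naive cells, and Treg cells were above them, with no overlap. The difference between TFR and Treg cells was -0.79 (SE 0.08, adjusted p = 0.00349), a call kept under all 21 other settings. That between TFH and naive cells was -0.30 (SE 0.08, adjusted p = 0.04) and was lost without any one of the 8 arrays (-0.36 to -0.24).

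Syvn1 (HRD1), the ubiquitin ligase of this pathway, was higher in TFH cells. It measured 15649 and 14956 RU there and 9976 and 8854 RU for naive cells (log2 0.70, SE 0.09, adjusted p = 0.00433), and the call held without any single array. It was lower in TFR than in TFH cells (log2 -0.52, SE 0.09, adjusted p = 0.0212), a call lost without any of 5 arrays (-0.54 to -0.44). Derl1 and Derl2, membrane proteins of the exit channel, were higher in TFH than in naive cells by 0.36 (SE 0.10, adjusted p = 0.0398) and 0.42 (SE 0.09, adjusted p = 0.0162). The Derl1 call was lost without any one array (0.30 to 0.42), and the Derl2 call without naive d12, naive d25 or TFH d12 (0.37 to 0.47). Another probe of Derl2 gave -0.16 in this contrast. Herpud1 and Sel1l, partners of Syvn1 at the ER membrane, were not called in any contrast.

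Derl3, the derlin of secretory cells, had the widest spread. It was 325 and 64 RU for naive cells, the latter not above background, 356 and 301 RU for Treg cells, 719 and 555 RU for TFH cells, and 1480 and 2174 RU for TFR cells. TFR cells were above all others at both days. The difference between TFR and Treg cells was 2.45 (SE 0.68, adjusted p = 0.0437), a call lost without any of 6 arrays (1.69 to 3.22), and that between TFH and naive cells was 2.13 (SE 0.68, adjusted p = 0.057). The summed level of 7 proliferation markers was also highest in TFR cells (52581 and 35850 RU, against 21245 and 14209 RU in TFH and 2203 to 6697 RU in the other cell types), and its part in these differences was not tested.

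At the translocon, differences were small. Sec61a1, the channel itself, was higher in TFH than in naive cells by 0.51 (SE 0.15, adjusted p = 0.0429), and Sec61b, its small subunit, by 0.28 (SE 0.08, adjusted p = 0.041). The former was lost without any of 7 arrays (0.28 to 0.58) and the latter without any one array (0.26 to 0.30). With 75th percentile scaling alone the sign of the Sec61b difference turned to -0.27. Ssr1, a subunit of the translocon-associated TRAP complex, was higher in TFR cells than in Treg cells (log2 0.29, SE 0.08, adjusted p = 0.0416) and than in TFH cells (log2 0.38, SE 0.08, adjusted p = 0.0329). Neither call held without each array (0.26 to 0.33 and 0.35 to 0.41 where lost). Ssr3, another subunit, was not called.

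Of the 3 targets of the Atf4 branch, Asns was called higher and Trib3 lower, both in TFH against naive and in TFR against Treg cells. Chac1 was called higher in both contrasts. It passed the filter only through the follicular cells in which it was high, so the filter set its direction. Asns, which makes asparagine, was 172 and 148 RU for naive cells, 692 and 451 RU for Treg cells, 1769 and 878 RU for TFH cells, and 3473 and 2551 RU for TFR cells. The 4 cell types did not overlap, in the order TFR, TFH, Treg and naive. Asns was 7.81-fold higher in TFH than in naive cells (log2 2.97, SE 0.20, adjusted p = 0.00062) and 5.33-fold higher in TFR than in Treg cells (log2 2.41, SE 0.20, adjusted p = 0.00194). Both calls held without any single array.

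Asns was also higher in Treg than in naive cells (log2 1.81, SE 0.20, adjusted p = 0.00978) and higher in TFR than in TFH cells (log2 1.26, SE 0.20, adjusted p = 0.0153). The former call was lost without naive d12, Treg d12 or Treg d25 (1.57 to 1.84) and the latter without either TFR array (1.17 and 1.34). Trib3, a pseudokinase that feeds back on Atf4, was 2155 and 1863 RU for naive cells, 1326 and 1261 RU for Treg cells, 879 and 682 RU for TFH cells, and 624 and 343 RU for TFR cells. Its order was the reverse of that of Asns, with no overlap. It was lower in TFH than in naive cells (log2 -1.37, SE 0.21, adjusted p = 0.00619) and in TFR than in Treg cells (log2 -1.48, SE 0.21, adjusted p = 0.00665), and both calls held without any single array.

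Chac1, which breaks down glutathione, was near the limit of detection. It was 20 and 43 RU for naive cells and 35 and 20 RU for Treg cells, not above background there, against 202 and 97 RU in TFH and 88 and 160 RU for TFR cells. It was therefore at least 2.40-fold higher in TFH than in naive cells and at least 2.24-fold higher in TFR than in Treg cells. In these bounds the dim arrays enter with the lowest signal that was well above background. The adjusted p-values of limma (0.0365 and 0.0474) belong to differences from dim or floored values and not to the bounds. The former call was lost without any of 6 arrays, all but TFH d25 and naive d25, and the latter without any Treg or TFR array. With normexp background correction the log2 differences were 0.73, still called, and 0.58, not called.

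The promoters of the 3 Atf4 targets each held a match to the C/EBP-ATF response element (CARE), TGATGNAA, to which Atf4 binds with a C/EBP partner. Among the 30 members with a promoter 4 held it (13.3%), Herpud1 being the fourth, and 3.97% of all promoters did. The 28 bases around the match are shown because these 3 genes moved in different directions, and they were chosen after their values were seen. Capitals mark the 7 fixed letters (TT and CATCA where the match lies on the opposite strand). The positions are chr2:152344029-152344056 on the minus strand for Trib3, chr2:119351039-119351066 on the plus strand for Chac1, and chr6:7693215-7693242 on the minus strand for Asns.
Trib3: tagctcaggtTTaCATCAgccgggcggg
Chac1: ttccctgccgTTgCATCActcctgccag
Asns: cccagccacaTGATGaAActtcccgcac

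The match in Asns lay at -23 to -16 bases from the start, that in Chac1 at -193 to -186, and that in Trib3 at 14 to 21 bases after it. The level of Atf4 mRNA itself was not called in any contrast, as given above.

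Between TFR and TFH cells 7 members were called, 3 higher in TFR cells (Hsp90b1, Ssr1 and Asns) and 4 lower (Hspa5, Dnajc3, Xbp1 and Syvn1), where 11.6% of all genes were higher and 10.5% lower. The median log2 difference of the members was -0.14, against -0.02 over all tested genes. The Hspa5 difference in this contrast was -0.38 (SE 0.10, adjusted p = 0.0496), a call lost without any one array (-0.46 to -0.31). At d25 the TFR and TFH arrays lay on different slides. With slide in place of day no member was called, 1 was called with no day term, and left-out arrays gave between 0 and 7.

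Between Treg and naive cells 3 members were called, all higher in Treg cells (Atf6, Xbp1 and Asns), where 5.89% of all genes were higher and 3.98% lower. The median log2 difference was 0.15, against -0.02. With slide in place of day none of the 3 was called, and 1 member was called with no day term. 9 members had an unadjusted p below 0.05 in the higher and 1 in the lower direction, counts for which the share of all genes was not computed.

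The change from naive to TFH cells and the change from Treg to TFR cells were compared directly by their difference, which was called higher for 4.03% and lower for 4.46% of all genes. It was called for 2 members, both of which changed less in Foxp3+ cells. For Atf6 it was -1.92 (SE 0.31, adjusted p = 0.0311), from changes of 2.67 and 0.75. For Xbp1 it was -1.36 (SE 0.14, adjusted p = 0.0107), from changes of 1.20 and -0.17. Over the 34 members 27 of these differences were negative, with a median of -0.18 against 0.00 over all tested genes. At an unadjusted p below 0.05 there were 11, all negative. The share of all genes at that threshold was not computed, so this count has no background. The differences for Hspa5 (-0.63, adjusted p = 0.0612) and Dnajc3 (-0.98, adjusted p = 0.0563) did not pass.

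The Atf6 call was lost without any of 7 arrays, all but naive d25 (-2.15 to -1.57), and the Xbp1 call without Treg d12, Treg d25, TFR d12, TFR d25 or naive d25 (-1.45 to -1.28). No call changed sign. With a trended and robust variance prior 8 members were called in this comparison.

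Between d25 and d12 no member was called by limma (0.019% of all genes were higher and 0.0508% lower at d25). At an unadjusted p below 0.05, 14 members were higher and 4 lower at d25, counts for which the share of all genes was not computed. The smallest adjusted p was 0.0706. With a trended and robust variance prior 6 members were called. All d12 arrays shared a slide that held no d25 array, so day and slide cannot be told apart.

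The other genes of these pathways were taken as 5 lists with 146 genes, of which 131 were tested. In TFH against naive cells 29 of them were higher and 22 lower, and in TFR against Treg cells 30 were higher and 16 lower. The shares were 22.1% and 16.8%, then 22.9% and 12.2%. Those of all genes were 20.9% and 25.6%, then 18.7% and 20.9%. Among other folding genes of the ER, 7 of 29 tested were higher (24.1%) and 3 lower (10.3%) in TFH cells. In TFR against Treg cells 8 were higher (27.6%) and 3 lower (10.3%). Fkbp2, a prolyl isomerase of the ER, was 1.44 higher on the log2 scale in TFH than in naive cells (SE 0.09, adjusted p = 0.000543) and 0.82 higher in TFR than in Treg cells (adjusted p = 0.00387). Hspa13, an Hsp70 relative, was higher by 1.30 (adjusted p = 0.000624) and 0.50 (adjusted p = 0.0124). Fkbp7, another ER prolyl isomerase, was lower in TFH cells (log2 -1.18, adjusted p = 0.0485), where 1 of its 2 arrays was above background.

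Among other genes of ER-associated degradation, 5 of 24 tested were higher (20.8%) and 2 lower (8.33%) in TFH cells. In TFR against Treg cells 3 were higher (12.5%) and 4 lower (16.7%). The shares of all genes were 20.9% and 25.6%, then 18.7% and 20.9%. Yod1, a deubiquitinase that acts with the p97 ATPase, was lower in TFR than in Treg cells (log2 -1.06, adjusted p = 0.00292), as was the mannosidase-like Edem2 (log2 -0.64, adjusted p = 0.0221). Svip, an inhibitor of this pathway, was at least 1.86-fold higher in TFR than in Treg cells. Its adjusted p from limma (0.0254) belongs to a difference from dim values and not to this bound. Svip was above background on TFR arrays only and passed the filter only through them. Of 31 genes of translocation and glycosylation, 6 were higher (19.4%) and 5 lower (16.1%) in TFH cells. In TFR against Treg cells 3 were higher (9.68%) and 3 lower (9.68%), both below the shares of all genes given above. Sec11c and Spcs1, subunits of the signal peptidase that trims entering chains, were higher in TFH than in naive cells (log2 1.39, adjusted p = 0.00205, and log2 1.03, adjusted p = 0.00087) and in TFR than in Treg cells (log2 1.22 and 0.42). Stt3b, a catalytic subunit of the oligosaccharyltransferase, was lower in both (log2 -1.24, adjusted p = 0.000858, and log2 -0.80, adjusted p = 0.00455).

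Of 23 tested genes of signaling in this response, 5 were higher (21.7%) and 4 lower (17.4%) in TFH cells. In TFR against Treg cells 9 were higher (39.1%) and 3 lower (13%). The shares of all genes were 20.9% and 25.6%, then 18.7% and 20.9%. Creb3l2 and Creb3l1 encode ER-bound transcription factors that are released like Atf6. Creb3l2 was higher in TFH than in naive cells (log2 1.20, adjusted p = 0.00328) and in TFR than in Treg cells (log2 1.86, adjusted p = 0.00172). Creb3l1 was lower in TFH than in naive cells (1025 and 865 RU in naive, 289 and 318 RU for TFH cells; log2 -1.63, adjusted p = 0.000704) and differed by 0.07 between TFR and Treg cells (adjusted p = 0.677). Bbc3 (Puma), a death-promoting Bcl-2 relative, was higher in TFR than in Treg cells (log2 1.00, adjusted p = 0.0246).

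Of 24 tested targets of the integrated stress response, 6 were higher (25%) and 8 lower (33.3%) in TFH cells. In TFR against Treg cells 7 were higher (29.2%) and 3 lower (12.5%). The shares of all genes were 20.9% and 25.6%, then 18.7% and 20.9%. Stc2, a secreted glycoprotein, was at or near the floor on all naive and Treg arrays (20 or 21 RU), 2122 and 3091 RU for TFH cells, and 348 and 446 RU for TFR cells. It was at least 43.9-fold higher in TFH than in naive cells and at least 7.43-fold higher in TFR than in Treg cells. Cebpb, a bZIP factor that can pair with Atf4, was higher by 2.06 (adjusted p = 0.00353) and 1.69 (adjusted p = 0.00857). Nupr1, a small stress-induced nuclear protein, was dim and was at least 1.69-fold and at least 1.70-fold higher in these contrasts. Stc2 and Nupr1 were not above background on any naive or Treg array, so both passed the filter only through the follicular cells in which they were high.

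Ordered by their mean, 15 of the 34 members were highest in TFH cells, 9 in Treg cells, 5 in naive cells and 5 in TFR cells. The lowest cell type was naive for 15 members, TFR for 11, TFH for 4 and Treg for 4. The same counts over all tested genes were not computed, so these have no background. They describe a list chosen with earlier results of these data known. The chaperones with the order TFH, TFR, Treg, naive were Hspa5, Sdf2l1, Creld2, Dnajb11 and Calr, and Pdia6, Atf6 and Derl2 had the same order. For Dnajb11 and Calr the whole range between cell types was 0.25 and 0.30 on the log2 scale.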

How the data were processed

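Naive CD4 T, TFH, Treg and TFR cells of d12 and d25 were each measured on 1 one-color Agilent array. Per the labels, spots were extracted with Agilent Feature Extraction 10.7.3.1. The authors deposited the background-corrected spot intensities (39429 probes in 4 spots each on each array) and a table of normalized intensity values on a linear scale. Following the study's methods, spots that carried a flag, lay outside 1.42 times the interquartile range of their probe or varied among their pixels by a coefficient over 0.5 were left out. This kept between 86.5% and 89.2% of the spots. The geometric mean of each probe was quantile normalized, scaled to a 75th percentile of 1500 and floored at 20. On each array these values correlated with the authors' table at a Pearson r of 0.9994. The brightest 1% of the probes lay above that table by a median log2 of 0.51 on each array. RU of the brightest members are therefore not on the scale of the authors' table. No spot was saturated. On each array, between 46.3% and 50.4% of the probes were well above background, meaning that more than 50% of their retained spots carried that flag. The number of arrays limits the precision.

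Quantile normalization sets all arrays to 1 distribution, so a shift of most genes in 1 cell type would not be seen. Each gene is given by its brightest probe, which was the same probe in the authors' table for all 35 members. 10 members had several probes. Gene names are those of the files.

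Differences were estimated in R 4.3.3 with limma 3.58.1 (lmFit and eBayes) over all tested genes and all 8 arrays, with additive terms for cell type and day (3 residual and 1.89 prior degrees of freedom). Day pairs the arrays because the labels give a shared day for arrays of each replicate number. The methods name a one-way analysis with Tukey's test, which was run as an alternative. The fit was tested on simulated data. Where both arrays of a cell type were not above background, a bound was computed from the lowest signal well above background on each array. Motifs were searched with Python 3.11.15 in RefSeq promoters of GRCm38.p6, while the files use NCBI37, and no position was carried between them. Protein sequences were not used here.

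The 35 members and all gene lists were chosen with earlier results of these data known. Values of every array are given for Hspa5, Xbp1, Atf4, Ddit3 and the 3 sensors and for the called members with the largest differences, up to 6 in TFH against naive and in TFR against Treg cells and up to 4 in each other contrast between cell types. Of the other pathway genes, the 3 of each list with the largest called difference in either of the first 2 contrasts are named. Other values by array were added to show single members.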

Additional observations from a re-analysis of the deposited data

Results flagged for a closer look

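The change from Treg to TFR cells differed from the change from naive to TFH cells for Atf6 (log2 -1.92, SE 0.31, adjusted p = 0.0311) and for Xbp1 (log2 -1.36, SE 0.14, adjusted p = 0.0107), by limma's test of the difference itself. For Atf6 both changes were upward, with 2.67 and 0.75. For Xbp1 they were 1.20 and -0.17. Left-out arrays gave between -2.15 and -1.57 for Atf6 and between -1.45 and -1.28 for Xbp1 where the calls were lost, and neither sign turned. With slide in place of day the Atf6 call was lost as well.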

How the results depend on the processing

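Counts of called members were recomputed under other choices. In TFH against naive cells (18), left-out arrays gave 10 to 15 and Tukey's test 11, or 3 after Benjamini-Hochberg. Of the 18, 9 were called under all of the 11 other normalizations, filters and models and all 8 left-out arrays (Hspa5, Sdf2l1, Pdia6, Atf6, Xbp1, Ddit3, Syvn1, Trib3 and Asns), and Atf6 alone under Tukey's test in both forms too. In TFR against Treg cells (12), the counts were 5 with no replicate block, that is without day, 5 and 1 with Tukey's test, and 3 to 12 with left-out arrays, and 3 calls (Edem1, Trib3 and Asns) held under all 11 choices and all left-out arrays. In TFR against TFH cells (7), normexp background correction gave 11, no replicate block 1, slide as a block 0, a trended and robust prior 13, Tukey's test 1 and 0, and left-out arrays 0 to 7. In Treg against naive cells (3), the counts were 5 with normexp, 1 without a filter, 5 with genes above background on all arrays only, 1 with no replicate block, 0 with slide as a block, 6 with the trended prior, 0 with Tukey's test after Benjamini-Hochberg, and 0 to 2 with left-out arrays. For the difference between both follicular changes (2), they were 5 with normexp, 1 without a filter, 4 with the strict filter, 1 with slide as a block, 8 with the trended prior, and 0 to 2 with left-out arrays. Between the days (0), they were 2 with normexp, 2 with the strict filter, 6 with the trended prior, and 0 with each left-out array. A sign turned for Sec61b in TFH against naive cells with 75th percentile scaling alone (-0.27) and, for a difference that was not called, for Ern1 in TFH against naive cells without TFH d25 (0.22, the other end of the range being -0.74) and in TFR against Treg cells without TFR d12 (0.05, with -0.43 at the other end). The causes were not tested. Scaling by the 75th percentile alone moved the median of all genes by at most 0.06. With 2 arrays for each cell type, a left-out array leaves 1 cell type with a single array, assumed to vary like the others.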
